A study of Homo sapiens with 3 samples.

Results

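The proteasome subunit genes were followed across the SMARCA4 knockdown arrays in HCT116 cells, an epithelial cell line from a human colorectal cancer. Subunits were the transcript probes on the array whose gene name was PSMA, PSMB, PSMC, PSMD or PSME followed by a number, leaving out PSMB8 and PSMB9. This gave 41 of the 43317 gene names with transcript probes, 17 of them in the core particle, 20 in the regulatory particle and 4 activators. There were 3 arrays, 1 for each group. SMARCA4-KD1 and SMARCA4-KD2 were HCT116 cells lipofected with small interfering RNA (siRNA) against SMARCA4, the ATPase of the SWI/SNF chromatin remodelling complex, and NC was the negative control. Every group was the same line, grown in McCOY's 5A medium with serum and with no genetic change named in the records, and the time between transfection and harvest is not given in the sources used here. The titles and the siRNA protocol of the records name SMARCA4 while their treatment field names PRMT1, and the knockdown number was taken from that field. On the arrays, the SMARCA4 signal was 3960 for SMARCA4-KD1, 4129 for SMARCA4-KD2 and 14026 for NC, and the PRMT1 signal was 9801, 10147 and 7683 in the same order. Signals are intensities before scaling between arrays, and the log2 differences given are after it. SMARCA4, and not PRMT1, was thus lower on the knockdown arrays than in NC. All 5 epithelial markers examined (EPCAM, KRT8, KRT18, KRT19 and CDH1) were well above background on every array. Of 8 markers of blood cells, fibroblasts, endothelium and liver, 5 were not well above background on any array, and PTPRC, COL1A1 and VWF gave signals between 24.1 and 477.

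The proteasome is the protease that degrades proteins tagged with ubiquitin. Its core particle is a barrel with outer rings of alpha subunits, which gate the entry, and inner rings of beta subunits, some of which carry the catalytic sites. The regulatory particle caps the barrel: a base with a ring of ATPases unfolds the substrate and threads it into the core, and a lid removes the ubiquitin chain. The PSME activators can cap the core in place of the regulatory particle. The finished complex holds its subunits in fixed proportions, and the transcription factor NFE2L1 is known to switch on their genes together when proteasome activity falls short.

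The agents that define the knockdown groups are siRNAs against SMARCA4, of which siRNA-1 is shown, 5′ to 3′ and with no part marked. The records do not say which knockdown number received it.
SMARCA4 siRNA-1: ucgcuuugguucgcaaauc

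Promoter windows of 300 bases, from 250 bases before to 50 bases after the RefSeq start (GRCh38.p14), were read for the subunits. Shown are PSMD8, which had the highest mean difference from NC of all subunits, and PSMD1 and PSMC1, which had the lowest. PSMB3 is also shown, as one of the subunits with a window that held both motifs searched. PSMA4 and PSMD3 were others. The choice was made after the values were seen. Capitals mark TGACNNNGC, the core of the antioxidant response element that NFE2L1 and NFE2L2 bind with small MAF proteins, and CCAAT, the box bound by NF-Y, on either strand (CCAAT on the other strand reads ATTGG).
PSMD8, chr19:38374321-38374620, plus strand: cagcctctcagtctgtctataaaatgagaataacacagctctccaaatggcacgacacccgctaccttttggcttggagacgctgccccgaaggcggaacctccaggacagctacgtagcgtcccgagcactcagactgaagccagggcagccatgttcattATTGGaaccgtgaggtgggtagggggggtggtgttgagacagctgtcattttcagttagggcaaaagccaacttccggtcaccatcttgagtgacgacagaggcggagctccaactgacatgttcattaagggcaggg
PSMB3, chr17:38752491-38752790, plus strand: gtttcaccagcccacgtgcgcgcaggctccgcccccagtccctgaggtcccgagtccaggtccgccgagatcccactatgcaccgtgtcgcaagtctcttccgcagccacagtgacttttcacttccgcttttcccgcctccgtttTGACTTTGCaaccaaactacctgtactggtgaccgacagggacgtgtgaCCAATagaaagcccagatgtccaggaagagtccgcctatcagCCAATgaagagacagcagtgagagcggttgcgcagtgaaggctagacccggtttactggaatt
PSMD1, chr2:231056617-231056916, plus strand: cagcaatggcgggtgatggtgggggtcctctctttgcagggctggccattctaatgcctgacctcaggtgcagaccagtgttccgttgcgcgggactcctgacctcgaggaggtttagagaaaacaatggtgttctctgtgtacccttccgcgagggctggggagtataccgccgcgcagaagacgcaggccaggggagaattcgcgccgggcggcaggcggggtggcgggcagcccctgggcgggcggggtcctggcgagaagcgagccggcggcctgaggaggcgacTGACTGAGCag
PSMC1, chr14:90256303-90256602, plus strand: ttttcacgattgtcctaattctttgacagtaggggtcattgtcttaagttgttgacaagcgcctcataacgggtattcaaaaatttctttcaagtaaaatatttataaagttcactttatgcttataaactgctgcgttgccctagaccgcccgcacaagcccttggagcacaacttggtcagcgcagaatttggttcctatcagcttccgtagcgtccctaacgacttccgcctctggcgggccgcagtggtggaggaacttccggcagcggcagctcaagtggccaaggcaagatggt

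Most proteasome subunits gave a somewhat higher signal in each knockdown than in NC, by less than 1.5-fold in nearly all cases. Of the 41 subunits, 39 were well above background on at least 1 array. PSMA8 and PSMB11, the alpha and beta subunits of the testis and thymus forms, were not well above background on any array. The median log2 difference of the 39 from NC was 0.31 for SMARCA4-KD1 and 0.24 for SMARCA4-KD2, which is 1.24-fold and 1.18-fold. Over all 22619 genes measured the medians were 0.00 and 0.02, and over the 7731 genes at least as bright as the dimmest measured subunit they were 0.09 in each knockdown. In SMARCA4-KD1, 35 of the 39 subunits lay above NC, against 49.8% of all genes and 58.8% of the genes as bright. In SMARCA4-KD2, 33 did, against 52.1% and 59.9%. The SMARCA4-KD1 and SMARCA4-KD2 differences share the single NC array, so their likeness is not independent evidence. With 1 array for each group there is no replicate check and no test, and in RNA from a whole culture fewer cells with a transcript and less of it in each cell cannot be told apart.

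Few subunits passed 1.5-fold, the fold part of the study's criterion. The study also set a p-value limit, which could not be applied here without replicate arrays. In SMARCA4-KD1, 3 were at least 1.5-fold higher (PSMD6, PSMD8 and PSME3), where 11.2% of all genes and 10.7% of the genes as bright were, and 0 were at least 1.5-fold lower, where 12.2% and 7.49% were. PSMD6 and PSMD8 were just past this threshold: PSME3 alone passed it with the percentile taken over detected probes, with quantile normalization or with the trend with signal level taken out, and PSMD8 did not pass with the series-level table. In SMARCA4-KD2, 0 passed in either direction, where 10.1% of all genes and 8.83% of the genes as bright were higher and 9.74% and 5.89% lower. At a lower threshold of 1.2-fold, added after the data were seen, 23 subunits were higher in SMARCA4-KD1, against 27.7% of all genes and 32% of the genes as bright, and 3 were lower, against 27.4% and 20.5%. In SMARCA4-KD2, 19 were higher at that threshold, against 28.1% and 30.6%, and 2 were lower, against 24.7% and 18.4%. The subunits thus leaned to one side by small amounts, and their counts past 1.5-fold did not exceed the shares among all genes.

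The extraction software gives an error of 0.204 on the log2 scale for a typical difference. By this measure, 7 subunits in SMARCA4-KD1 and 6 for SMARCA4-KD2 lay more than 2 such errors from 0. Genes outside the subunits were not counted this way, so whether 7 and 6 are more than their usual share cannot be told. The software error also leaves out the spread between cultures. Both knockdown arrays were on slide 1 and NC was alone on slide 2, so slide and knockdown cannot be told apart. Differences from NC also depended on signal level: with the trend over all genes taken out, the median was 0.20 for SMARCA4-KD1.

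Alpha ring subunits, which form the gate of the core, were all higher than NC in SMARCA4-KD1, with a median log2 difference of 0.34 over 7 subunits, although the mean of both PSMA1 differences turned to -0.24 with the mean over its probes, -0.04 under quantile normalization and -0.03 with the trend with signal level taken out. In SMARCA4-KD2 the median was 0.20, and PSMA4 alone lay below NC. PSMA6 gave a signal of 47983 for SMARCA4-KD1, 40297 for SMARCA4-KD2 and 34278 for NC, log2 differences of 0.40 and 0.20. PSMA5 gave 28277, 26009 and 20554 in the same order, differences of 0.38 and 0.31. Both were highest in SMARCA4-KD1 and lowest in NC, and so were PSMA1, PSMA2 and PSMA3. PSMA7 gave 25072 for SMARCA4-KD1, 24237 for SMARCA4-KD2 and 18627 for NC, differences of 0.34 and 0.35. PSMA3 (0.34 and 0.24) and PSMA2 (0.27 and 0.18) followed. PSMA4 had signals of 19707, 17512 and 18274, so its knockdown arrays fell on either side of NC (0.02 and -0.09). The mean of both PSMA4 differences was -0.03. Over the alternatives it ran from -0.16, with the trend with signal level taken out, to 0.04, with another background correction. PSMA1 lay close to NC (0.12 and 0.03).

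Each of the 8 beta ring subunits measured was above NC in each knockdown, with median log2 differences of 0.35 for SMARCA4-KD1 and 0.34 for SMARCA4-KD2. However, the mean of both PSMB1 differences turned to -0.05 with the trend with signal level taken out. It was -0.02 under quantile normalization and -0.01 with the percentile over probes well above background. The SD across beta ring subunits was 0.136 for SMARCA4-KD1 and 0.127 for SMARCA4-KD2, against 0.141 and 0.156 in the alpha ring. PSMB5, which carries the chymotrypsin-like site and is the main target of bortezomib, gave a signal of 32741 for SMARCA4-KD1, 30915 for SMARCA4-KD2 and 22587 for NC. Its log2 differences of 0.45 and 0.42 were the highest of the core particle, and its probe lies at chr14:23495485-23495544 (hg19). PSMB7, with the trypsin-like site, gave 43755, 42857 and 32003, differences of 0.37 and 0.39. For PSMB6, with the caspase-like site, the signals were 35817, 34951 and 28083, differences of 0.27 and 0.28. All of the catalytic subunits of the standard core therefore had their 2 knockdown arrays close together and above NC.

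Among the beta subunits without a catalytic site, PSMB4 gave 61203 for SMARCA4-KD1, 57307 for SMARCA4-KD2 and 42517 for NC (chr1:151374330-151374389, hg19), differences of 0.44 and 0.40. PSMB2 (0.37 and 0.32) and PSMB3 (0.33 and 0.16) were also higher than NC. PSMB1 hardly differed, with signals of 103712, 102732 and 96463 and log2 differences of 0.02 and 0.06. PSMB10 is not of this group: it is the interferon-induced catalytic counterpart of PSMB7 in the immunoproteasome. It gave 19081, 18811 and 14385, and its differences of 0.32 and 0.35 were near those of PSMB7.

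The ATPase ring of the regulatory particle base split. PSMC3, PSMC5 and PSMC6 were higher than NC by nearly the same amount on each knockdown array, with log2 differences between 0.31 and 0.39. PSMC3 gave a signal of 4538 for SMARCA4-KD1, 4622 for SMARCA4-KD2 and 3452 for NC. PSMC5 gave 5526, 5287 and 4169, and PSMC6 gave 7456, 7244 and 5670. In contrast, PSMC1 gave 21865 for SMARCA4-KD1, 21452 for SMARCA4-KD2 and 26316 for NC, so that it was 1.28-fold and 1.25-fold lower (log2 differences of -0.35 and -0.33, probe at chr14:90738829-90738888, hg19). PSMC1 encodes one of the ATPases whose tail docks into the alpha ring and opens its gate. A second PSMC1 probe in the same gene, at chr14:90738692-90738750, gave 2923, 3117 and 3910, differences of -0.50 and -0.36. Both of its probes were thus lowest on the knockdown arrays. PSMC2 hardly differed (0.08 and 0.08). PSMC4 was higher than NC in SMARCA4-KD1 only, with signals of 5395, 4099 and 4086. The median of the 6 ATPases was 0.31 for SMARCA4-KD1 and 0.19 for SMARCA4-KD2.

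Non-ATPase subunits of the regulatory particle had a wide range, from -0.35 to 0.60 for SMARCA4-KD1 and from -0.38 to 0.54 for SMARCA4-KD2 over 14 genes. At the upper end were lid subunits. PSMD8, a small lid subunit that joins late in lid assembly, gave 22976 for SMARCA4-KD1, 21312 for SMARCA4-KD2 and 14364 for NC, which is 1.51-fold and 1.45-fold higher than NC (0.59 and 0.54, probe at chr19:38871613-38872789, hg19). PSMD6, another lid subunit, gave 8641, 7802 and 5369, which is 1.52-fold and 1.42-fold higher (0.60 and 0.51, chr3:64004291-64004350). In both of these lid subunits NC was lowest and the knockdowns lay closer to each other than to NC. In SMARCA4-KD1, PSMD6 lay above 89.4% of all genes and PSMD8 above 89.1%, and in SMARCA4-KD2 above 86.9% and 88.1%. PSMD11, which clamps lid, base and core together, gave 6943, 6539 and 4696, differences of 0.48 and 0.45 (chr17:30807187-30807537). PSMD13, also of the lid, gave 6593, 5906 and 4580, differences of 0.44 and 0.33.

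The other lid subunits lay nearer to NC. PSMD14, the deubiquitinase that cuts the chain off the substrate, gave 24238 for SMARCA4-KD1, 22391 for SMARCA4-KD2 and 22510 for NC, differences of 0.02 and -0.04. Its structural partner PSMD7 had differences of 0.24 and 0.08. PSMD3 (0.15 and 0.16) and PSMD12 (0.13 and 0.07) were also within 1.2-fold of NC. Lid subunits therefore ranged from almost no difference in the catalytic PSMD14 to about 1.5-fold in PSMD6 and PSMD8.

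At the lower end of the non-ATPase group were subunits of the base. PSMD1, the large scaffold that holds the ubiquitin receptor ADRM1, gave 20540 for SMARCA4-KD1, 19481 for SMARCA4-KD2 and 24774 for NC (chr2:232037369-232037428, hg19), log2 differences of -0.35 and -0.38. It had the lowest mean difference from NC of all subunits and lay above 22.3% of all genes in SMARCA4-KD1 and 18.1% for SMARCA4-KD2. A second PSMD1 probe gave 3583, 3860 and 3990, differences of -0.24 and -0.08, the same direction but smaller. PSMD4, a ubiquitin receptor, gave 26206, 27979 and 28116, differences of -0.19 and -0.04. PSMD2, the other large base scaffold, gave 57037, 70502 and 52758, so only SMARCA4-KD2 stood apart from NC (0.03 and 0.39). PSMD1 and PSMC1 were the only measured subunits at least 1.2-fold lower than NC in SMARCA4-KD2, and PSME2 joined them in SMARCA4-KD1.

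PSMD5, PSMD9 and PSMD10 carry subunit names but are chaperones that leave the base before the particle is finished. PSMD5 gave 2708 for SMARCA4-KD1, 2644 for SMARCA4-KD2 and 1940 for NC, differences of 0.40 and 0.41. PSMD9 (0.16 and 0.11) and PSMD10 (0.08 and 0.22) lay nearer to NC. On its brightest probe only PSMD5 of these was past 1.2-fold, but PSMD9's other probe gave 0.72 and 0.38, and with the mean over probes the mean of both differences was 0.34 for PSMD9 and 0.25 for PSMD5.

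Of the activators, PSME3 had the largest difference from NC of any subunit in SMARCA4-KD1, but not in SMARCA4-KD2. PSME3, the nuclear activator PA28 gamma, gave 4829 for SMARCA4-KD1, 3207 for SMARCA4-KD2 and 2562 for NC (chr17:40994997-40995056, hg19). It was 1.78-fold higher for SMARCA4-KD1 and 1.22-fold higher for SMARCA4-KD2 (log2 differences of 0.83 and 0.29), so most of its difference was on 1 array. PSME4, the activator PA200 that is known for its part in the turnover of acetylated histones, gave 2188, 2216 and 1567, differences of 0.40 and 0.47 on knockdown arrays that were nearly equal. PSME1 and PSME2 form the interferon-induced activator together. PSME1, the dimmest measured subunit, gave 955, 911 and 831, differences of 0.12 and 0.10. PSME2 gave 18810, 23687 and 22663, so that it was below NC in SMARCA4-KD1 (-0.35) and close to it in SMARCA4-KD2 (0.03).

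**Figure D1:**
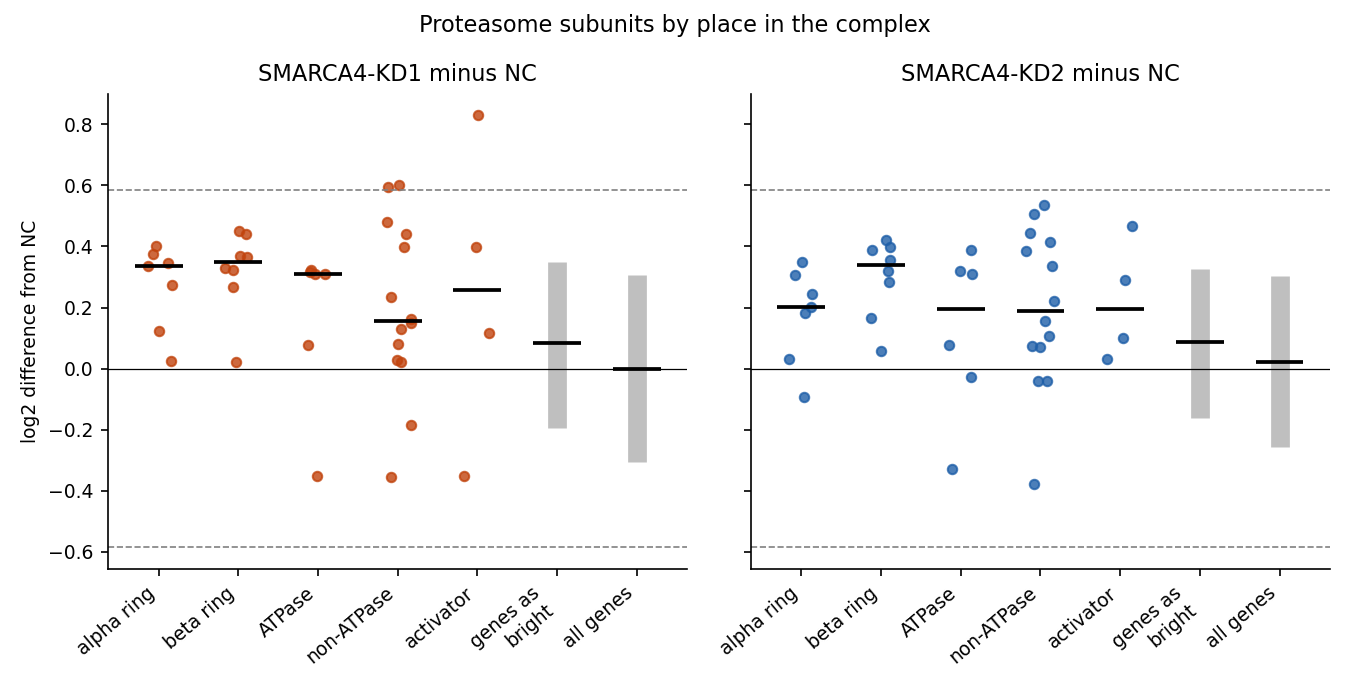
Log2 difference from NC (y axis) of the subunits by place in the complex in SMARCA4-KD1 (left) and SMARCA4-KD2 (right); each point is 1 subunit, thick lines are medians and grey bars span the middle 50% of the genes as bright and of all genes. Beta ring points lie between 0.02 and 0.45 for SMARCA4-KD1, while the non-ATPase points run from -0.35 to 0.60.

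Set side by side, the core particle was a little higher than the regulatory particle against NC, and more uniform. The core median was 0.34 for SMARCA4-KD1 and 0.28 for SMARCA4-KD2 (15 subunits), and the regulatory median was 0.20 and 0.19 (20 subunits). Regulatory minus core was therefore -0.14 and -0.09 on the log2 scale. By place in the complex, the gap did not follow the particles evenly. In SMARCA4-KD1 the non-ATPase median was 0.16, while the ATPase, alpha ring and beta ring medians were 0.31, 0.34 and 0.35. In SMARCA4-KD2 the beta ring median was 0.34, while the alpha ring, ATPase and non-ATPase medians were 0.20, 0.19 and 0.19. The SD across subunits was 0.14 in the core and 0.27 in the regulatory particle in SMARCA4-KD1, and 0.15 and 0.26 for SMARCA4-KD2. In SMARCA4-KD1, 15 of 15 core subunits and 17 of 20 regulatory subunits were above NC, and in SMARCA4-KD2, 14 of 15 and 15 of 20 were. Subunits are not replicates of a group, so no test of this difference was possible. Under quantile normalization the gap closed in SMARCA4-KD2 (regulatory minus core of 0.00), while in SMARCA4-KD1 it kept its direction under every alternative run, between -0.18 and -0.06.

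Between the knockdowns, which were on the same slide, the subunits were close. The median log2 difference of SMARCA4-KD1 minus SMARCA4-KD2 was 0.03 over the 39 subunits, with an SD of 0.153, against an SD of 0.165 over the genes as bright. None (0 of 39) were 1.5-fold apart, where 0.582% of the genes as bright and 6.58% of all genes were. At 1.2-fold, 4 were apart, where 8.69% of the genes as bright and 24.6% of all genes were. These were PSME3 (0.54) and PSMC4 (0.34), which were higher in SMARCA4-KD1, and PSME2 (-0.38) and PSMD2 (-0.36), which were higher in SMARCA4-KD2. For PSMD2 this holds for its brightest probe only, since its second probe gave 0.15, the opposite direction. PSME3 alone of the subunits was more than 2 software errors apart, and other genes were not counted this way. The core particle held 0 of these 4, which for 15 subunits is not far from the 8.69% of the genes as bright. Its SD between the knockdowns was 0.072. Its probes were bright, with NC signals from 13459 to 96463, while the genes as bright were matched only to the dimmest subunit. Whether this SD goes with signal level was not tested.

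The array carried 57 probes for the 41 subunits, and 53 of them were well above background on at least 1 array. For 27 subunits a single probe passed, so their values rest on 1 sequence each. Among the 12 with several, every probe lay on the same side of NC in each knockdown for 7 (PSMB1, PSMB2, PSMC1, PSMD1, PSMD9, PSMD14 and PSME4). PSMB2's probes gave 0.37 and 0.32 on the brighter and 0.40 and 0.39 on the other. PSME4's probes gave 0.40 and 0.47 on the brighter and 0.62 and 0.44 on the other.

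For PSMA1, PSMC2, PSMD2, PSMD5 and PSMD10 the probes disagreed. PSMC2's bright probe (8223, 7940 and 7357 for SMARCA4-KD1, SMARCA4-KD2 and NC) hardly differed from NC, while a dim one (82.3, 85.6 and 129) was lower, by -0.73 and -0.62. PSMD10's brightest probe was above NC, another gave 524, 541 and 916, differences of -0.89 and -0.79, and the remaining one was at -0.08 in each knockdown. PSMA1 had a dim second probe (102, 95.6 and 140) at -0.54 and -0.58. PSMD2's second probe (4107, 3566 and 4041) did not show the higher signal that its brightest probe gave in SMARCA4-KD2, since its differences were -0.06 and -0.21. Which transcript forms these probes detect was not examined, and the values of these 5 subunits hold only for the probe named.

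PSMD6 and PSMD7 are the subunits whose probe was printed 10 times on each array, which shows the spread of a single array. PSMD6 spots ran from 8481 to 8763 for SMARCA4-KD1 (8 spots used), from 7635 to 7902 for SMARCA4-KD2 (8 spots) and from 5215 to 5611 in NC (10 spots), and their log2 SD was 0.018, 0.016 and 0.032. PSMD7 spots ran from 14009 to 14580, from 12167 to 12535 and from 11251 to 11834. The 3 arrays did not overlap in either gene, and the spread between spots was smaller than the differences between arrays. Spots of 1 array share 1 RNA sample, so they say nothing of the spread between cultures.

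Genes that build and serve the proteasome were read from hand-written lists. The 13 assembly and accessory factors had median log2 differences from NC of 0.33 for SMARCA4-KD1 and 0.18 for SMARCA4-KD2, near those of the subunits. At 1.5-fold, 1 was higher and 2 were lower on each knockdown array. Of all genes, 11.2% were higher and 12.2% lower in SMARCA4-KD1, and 10.1% and 9.74% in SMARCA4-KD2. The counts in this list were thus near the shares of all genes. POMP, the maturation factor on which the beta rings assemble, gave 1681 for SMARCA4-KD1, 1538 for SMARCA4-KD2 and 881 for NC, differences of 0.85 and 0.77. PSMG3, a chaperone of alpha ring assembly, gave 2434, 2314 and 4464, differences of -0.96 and -0.98. PAAF1, a chaperone that binds ATPases of the base, gave 1795, 2092 and 3836, differences of -1.18 and -0.91. These chaperones were named because they passed 1.5-fold on each knockdown array, which no subunit did, so their distance from NC follows from that choice. The other factors of the list lay within 1.5-fold of NC. POMP was higher, and PSMG3 and PAAF1 were lower.

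Among 12 regulators of proteasome gene transcription, 11 were measured, with medians of 0.25 for SMARCA4-KD1 and 0.29 for SMARCA4-KD2. NFE2L1, which activates subunit genes, gave 4154 for SMARCA4-KD1, 4500 for SMARCA4-KD2 and 5484 for NC. Its RNA was thus below NC (-0.49 and -0.32) while that of most subunits was above. The arrays do not measure NFE2L1 protein, and a link between NFE2L1 and the subunits was not tested. NFE2L2, its relative in the oxidative stress response, was read from 1 probe, which was not well above background on any array. A transcript that is absent and a probe that fails to detect it cannot be told apart here. DDI2, the protease that cuts NFE2L1 into its active form, gave dim signals of 64.8, 59.5 and 29.0, differences of 1.08 and 1.00. NFE2, a related factor of blood cells, was also dim (81.2, 71.3 and 136) and lower, by -0.82 and -0.96. DDI2 and NFE2 were the members of this list past 1.5-fold, in opposite directions. That is 1 higher and 1 lower of 11 on each knockdown array. Of all genes, 11.2% were higher and 12.2% lower in SMARCA4-KD1, and 10.1% and 9.74% in SMARCA4-KD2, so these counts were near the shares of all genes.

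The 13 genes read for ubiquitin supply and delivery had a median of 0.23 for SMARCA4-KD1 and 0.25 for SMARCA4-KD2. At 1.5-fold, 1 was higher and 0 were lower in SMARCA4-KD1, where 11.2% and 12.2% of all genes were. In SMARCA4-KD2, 0 were higher and 1 was lower, where 10.1% and 9.74% of all genes were. Each of these genes passed 1.5-fold on 1 knockdown array only. Named after their values were seen, they were RAD23B, which carries ubiquitin-tagged proteins to the proteasome (0.72 and 0.48), and UBQLN4, a ubiquilin shuttle factor (-0.54 and -0.74).

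**Figure D2:**
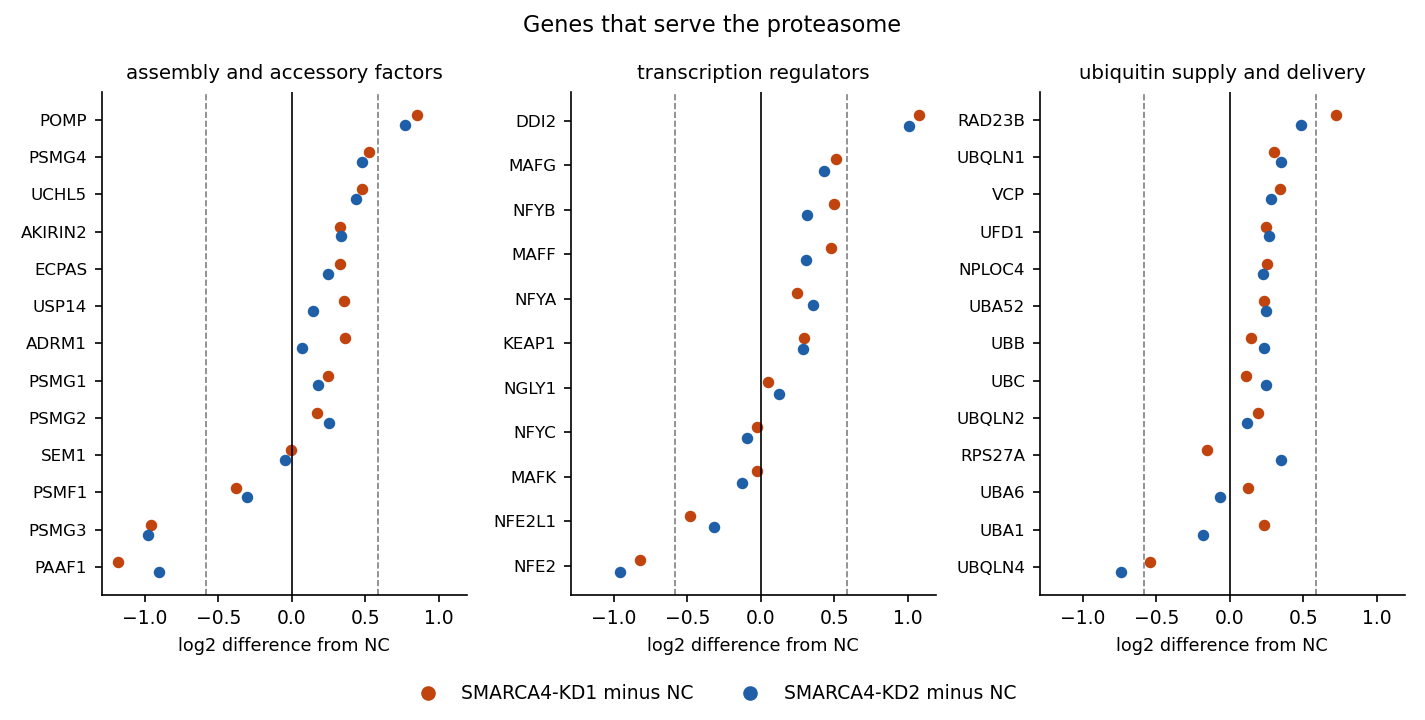
Log2 difference from NC (x axis) of the measured genes of 3 lists, SMARCA4-KD1 in orange and SMARCA4-KD2 in blue, sorted by the mean of the 2; dashed lines mark 1.5-fold. POMP and DDI2 lie beyond the upper line, PSMG3, PAAF1 and NFE2 beyond the lower one for each knockdown, and most other genes between 0 and 0.5.

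A promoter window was found for 36 of the 41 subunits. TGACNNNGC occurred in 12 of the 36, which is 33.3%, against 16.1% of 27305 genes with a window. It was found in 2 of 13 core subunits, 7 of 19 regulatory subunits and 3 of 4 activators. CCAAT occurred in 18 of 36 (50%), against 39.7% of genes, in 8 core subunits, 9 regulatory subunits and 1 activator. PSMD8, shown above, held CCAAT alone. PSMD1, the lowest subunit, held TGACNNNGC just after its start, and PSMC1 held neither. The median of the mean difference from NC was 0.14 over the 12 measured subunits with TGACNNNGC and 0.33 over the 22 without a match, and 0.29 and 0.21 over the 17 with and the 17 without CCAAT. A match is only these letters in the window, and absence of one says nothing about binding elsewhere.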

How the data were processed

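Total RNA of 3 cultures was labelled with Cy3 and hybridised to Agilent SurePrint G3 v3 human arrays in 1 colour. The authors extracted the spots with Agilent Feature Extraction 10.7.1.1, and the deposited intensity of each of the 62976 spots was background-subtracted and detrended but not normalized between arrays. The deposited files also hold 0 or 1 flags, used as given. The deposited series-level table, also of intensity, was equal within 0.1% for 57 of 57 subunit probes and served as an alternative. Between 45.7% and 47.3% of 58201 probes were well above background, and precision is limited by having 3 arrays.

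Control spots and outlier spots were left out (3 subunit spots in SMARCA4-KD1, 2 in SMARCA4-KD2, 0 in NC), and 0 subunit spots were saturated. Signals quoted are geometric means over spots, before scaling. Log2 signals were set relative to the array's 75th percentile, an intensity of 237, 228 and 223 in SMARCA4-KD1, SMARCA4-KD2 and NC. Values not well above background were raised to the lowest value well above background on that array. The filter kept 29333 probes, each well above background on 1 array or more, and a gene was represented by its brightest probe. Names and hg19 positions are those of the array files. The steps were checked on simulated data. Every subunit may be named, and of the other lists NFE2L1, NFE2L2 and genes at least 1.5-fold from NC in each knockdown, and RAD23B and UBQLN4 were added after their values were seen. From the lists as first written, 2 genes were left out of every count and are not reported here. The members and lists were chosen with earlier results of these data known. Analyses used Python 3.11.15, numpy 2.4.6, pandas 2.3.3 and statsmodels 0.14.6, normexp used limma 3.58.1 (R 4.3.3), and figures used matplotlib 3.10.9.

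The alternatives were 2 other scalings, normexp with an offset of 50, the series-level table, 2 other filters, the mean over probes, probes in place of genes, a 2-fold threshold, and the subunits without PSMD5, PSMD9 and PSMD10 or without PSMA8, PSMB10 and PSMB11. Removal of the trend with signal level by lowess (fraction 0.3) and the 1.2-fold threshold were chosen after seeing the data.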

Additional observations from a re-analysis of the deposited data

How the results depend on the processing

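No alternative reversed a called difference. The median of the subunits stayed above 0 under the 11 alternatives run, between 0.20 (trend with signal level taken out) and 0.32 for SMARCA4-KD1 and between 0.14 (quantile normalization) and 0.26 for SMARCA4-KD2, and the cause was not tested. The count at least 1.5-fold higher in SMARCA4-KD1 went from 3 to 1 (PSME3) with the percentile over probes well above background, with quantile normalization or with the trend taken out, to 2 with the series-level table (without PSMD8), to 5 with probes in place of genes (adding probes of PSMD9 and PSME4), to 0 at 2-fold and to 23 at 1.2-fold. In SMARCA4-KD2 it went from 0 to 1 with normexp (PSMD8) or with no filter and no floor (PSMB11, not well above background), and to 19 at 1.2-fold. With probes in place of genes, 2 were at least 1.5-fold lower in each knockdown, the dim probes of PSMC2 and PSMD10, and at 1.2-fold 3 subunits were for SMARCA4-KD1 and 2 for SMARCA4-KD2. The median mean difference of the transcription regulators went from 0.29 to 0.17 with the mean over probes and to 0.19 with no filter. Single subunits changed sign against NC most often with quantile normalization (5 of 39), the mean over probes (4) and the trend taken out (4). With no filter the median of all genes was -0.14 in each knockdown. No paired analysis was possible because each group had 1 array, no replicate could be left out for the same reason, and slide as a block could not be fitted because NC was alone on its slide.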
